A study of Mus musculus with 4 samples.

Results

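The genes described here are Etv2, Myct1, Sox7, Sox17, Sox18, Erg, Fli1, Tal1, Gata2 and Nfatc1, which are 10 of the 32285 genes counted in single cells of mouse hearts at E10.5. They were listed by symbol, and the list was drawn up because Etv2 was lower and Myct1 higher in mutant endocardium, so the genotype values in endocardial cells (EdCs) are given as descriptions without a test. All 10 were found in the count tables. Control embryos were Tie2 fl/fl, homozygous for a conditional allele of Tie2, whose gene symbol is Tek and which codes for an angiopoietin receptor. Tie2-cko embryos were Nfatc1Cre;Tie2 fl/fl, which adds a Cre knocked into the Nfatc1 locus, itself a gene of the list, so that the knock-in and the loss of Tie2 cannot be told apart. Each genotype had 2 libraries, numbered 5 and 7 (control) and 6 and 8 (Tie2-cko), and the methods give 2 hearts of each genotype from 1 litter, in a strain background that mixes 129 with C57/BL6. The comparison asks how loss of endocardial Tie2 bears on these regulators while the trabeculae form.

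All but Myct1 code for transcription factors. ETV2, ERG and FLI1 belong to the ETS family, which binds DNA sites around the letters GGAA. ETV2 acts early and briefly when mesoderm takes on endothelial and blood fates, and ERG and FLI1 maintain endothelial identity afterwards. SOX7, SOX17 and SOX18 form the SOXF group, with roles in vessel and arterial development. TAL1 and GATA2 act together in blood formation and are also found in endothelium, and NFATC1 is needed for growth of the heart valves and marks endocardium. MYCT1 is the exception, a small membrane protein of endothelial and blood cells that is known as a target of ETV2.

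Upstream sequence is shown for Etv2 and Myct1, the genes for which the list was drawn up. Promoters from RefSeq on build GRCm38.p6 were given for 5 of the 10 genes, Etv2, Myct1, Erg, Tal1 and Gata2. The 250 bases before the RefSeq start of each gene are written 5′ to 3′ on the gene's strand, and capitals mark matches to any of 6 motifs searched on both strands. The ETS family was searched for by CGGAAG, and by a second core that reads AGGAAG. Factors of the GATA family were represented by AGATAA, while SOX factors had the motif AACAAT. The FOX motif was written GTAAACA, and the E-box of TAL1 was taken as CAGATG. The first sequence is the minus strand of chr7:30635853-30636102 and the second the plus strand of chr10:5593478-5593727.
Etv2: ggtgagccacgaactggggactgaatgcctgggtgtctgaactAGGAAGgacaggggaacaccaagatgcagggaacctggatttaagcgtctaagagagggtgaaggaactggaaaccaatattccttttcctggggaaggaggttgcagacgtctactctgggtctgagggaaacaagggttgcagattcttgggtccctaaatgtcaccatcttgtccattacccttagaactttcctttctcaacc
Myct1: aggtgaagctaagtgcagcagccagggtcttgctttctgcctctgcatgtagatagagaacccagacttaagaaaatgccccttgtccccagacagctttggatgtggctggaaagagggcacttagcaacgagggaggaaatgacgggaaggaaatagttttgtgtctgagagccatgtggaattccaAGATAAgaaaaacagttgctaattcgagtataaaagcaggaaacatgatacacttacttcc
The Etv2 window held 1 AGGAAG 207 bases before the start, and the Myct1 window held 1 AGATAA 61 bases before the start. Both distances are from the RefSeq start, which for Myct1 lies upstream of the GENCODE start. Of the 32851 promoter windows of the same length, 29.5% held AGGAAG and 9.99% held AGATAA, so both are common letters and are a description only. Etv2 is a compact gene of 2237 bases on chromosome 7 (30633616 to 30635852), and Myct1 spans 13130 bases on chromosome 10 (5593775 to 5606904) in GENCODE M21. Neither overlaps another annotated gene. Sox17 shares its locus with the processed transcript Gm37587 on the other strand, and Nfatc1 with the antisense gene AC123818.1. Fli1 shares its locus with the antisense gene Gm27201 and with 5 other small annotated genes on its own strand. Whether these overlaps affected the counts was not tested.

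The 4 libraries held 169361996 to 259775540 unique molecular identifiers (UMIs, 1 for each captured transcript), and 33419 of 50436 barcodes were kept. The median kept cell held 14878 to 25875 UMIs, most in Tie2-cko library 6. Pairs of libraries shared 12 to 29 kept barcodes. Chamber EdCs, which line the chambers, numbered 343, 122, 531 and 341 in libraries 5, 6, 7 and 8, cushion EdCs 293, 141, 472 and 529, and vascular endothelial-like cells 75, 65, 29 and 46. A further 133 endothelial cells led by Gja4 and Rgs2 met no list of markers and were kept apart. Libraries 5 and 6 held most of the 616 hepatic and 233 early blood cells, and so more tissue from outside the heart than libraries 7 and 8. In chamber EdCs Tek stood at 0.952 and 0.930 UMIs per 10000 UMIs of a cell in the controls (libraries 5 and 7) against 0.124 and 0.164 in the mutants (6 and 8). Its log2 fold change, Tie2-cko over control, was -2.52 ± 0.22 (SE), the only gene of 11328 past an adjusted p of 0.05 in edgeR's quasi-likelihood test (adjusted p = 0.0395, 0.00883% of genes called). In vascular endothelial-like cells Tek was 0.542 and 0.707 in the controls against 0.721 and 0.450 in the mutants, and the genotypes overlapped. The levels below are on the same scale, UMIs per 10000 averaged over the cells of a library. They are compared between cell types or genotypes, not between genes.

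Among the cell types, Etv2 had its highest mean level in chamber EdCs, at 0.364 over the 4 libraries. Cushion EdCs were at 0.142, lower than chamber EdCs in 4 of 4 libraries. The ratio of chamber to cushion within a library was 1.14 to 3.60. Vascular endothelial-like cells had a mean of 0.319 with a wide range over libraries, and chamber EdCs were higher in 3 of 4 libraries, so this pair in the order did not separate. The mean also joins both genotypes. Chamber EdCs were at 0.513 and vascular endothelial-like cells at 0.201 over the controls, and at 0.214 and 0.437 over the mutants. The order over the mutants rested on library 6, since the 0.437 joins 0.813 in library 6 and 0.0611 in library 8. In library 8 chamber EdCs were the higher. Mesenchymal cells (MCs) were at 0.0347, and cardiomyocytes (CMs) at 0.00390. Myct1 had another order. Its level was highest in the endothelial cells led by Gja4 and Rgs2, at 1.604, followed by vascular endothelial-like cells at 0.707, which lay above chamber EdCs (0.387) and above cushion EdCs (0.313) in 4 of 4 libraries. Megakaryocyte-like cells, the precursors of platelets, carried Myct1 at 0.657, whereas red blood cells were at 0.00232. Levels of megakaryocyte-like cells, here and below, come from libraries 5 and 6 only, where Myct1 was at 0.407 and 0.906.

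**Figure D1:**
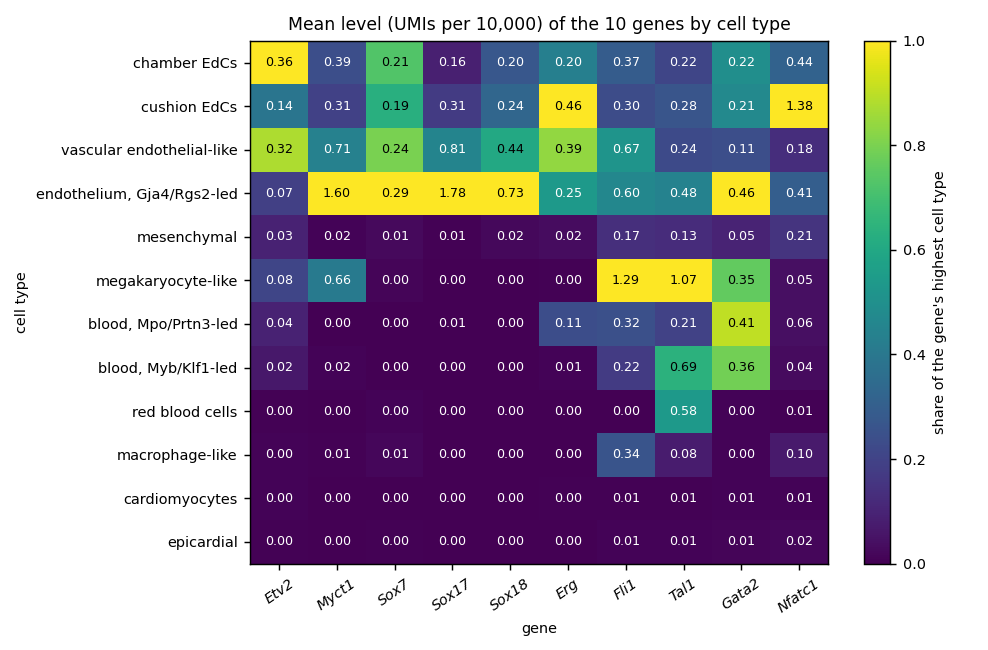
Mean level of each gene (columns) in 12 cell types (rows), over the libraries with at least 10 cells of the type. Numbers are UMIs per 10000 and the colour is the share of the gene's own highest cell type, so columns show which type had the highest mean of each gene: Etv2 in chamber EdCs (0.364, beside 0.319 in vascular endothelial-like cells, which did not separate), Nfatc1 in cushion EdCs, Sox17 and Myct1 in the cells led by Gja4 and Rgs2, and Tal1 and Fli1 in megakaryocyte-like cells.

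The SOXF genes were found in endothelium and hardly elsewhere. Sox17 was at 1.78 in the cells led by Gja4 and Rgs2, at 0.808 in vascular endothelial-like cells, at 0.311 in cushion EdCs and at 0.157 in chamber EdCs. Each step between the last 3 types held in 4 of 4 libraries. Sox17 and Myct1 were among the 10 leading genes of the cells led by Gja4 and Rgs2, although neither was used for clustering. Sox18 followed the same order in its means, at 0.732, 0.443, 0.242 and 0.199, but cushion was above chamber in only 3 of 4 libraries. Sox7 was flatter, with 0.236 in vascular endothelial-like cells, 0.215 in chamber and 0.186 in cushion EdCs, and the order of each of these pairs held in 3 of 4 libraries. In red blood cells and macrophage-like cells no SOXF gene had more than 5 UMIs in a library.

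Of the other ETS genes, Erg was higher in cushion EdCs (0.461) than in chamber EdCs (0.199) in 4 of 4 libraries, the reverse of Etv2. Fli1 was 0.375 in chamber and 0.2999 in cushion EdCs, again with the same order in 4 of 4 libraries, and 0.671 in vascular endothelial-like cells. Fli1 was shared with blood, at 1.29 in megakaryocyte-like cells and 0.337 in macrophage-like cells, while Erg was at most 0.00590 in any library of megakaryocyte-like cells. Blood cells led by Mpo and Prtn3 carried Erg at 0.110, and MCs carried Fli1 at 0.174, so neither gene was limited to endothelium.

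Tal1 and Gata2 were detected on both sides of the blood and endothelial divide. Tal1 was at 1.07 in megakaryocyte-like cells, 0.689 in blood cells led by Myb and Klf1 and 0.578 in red blood cells. The level of the cells led by Myb and Klf1 comes from libraries 5 and 6 only. In endothelium Tal1 was at 0.477 in the cells led by Gja4 and Rgs2, whose range overlapped that of red blood cells. It was at 0.284 in cushion and 0.224 in chamber EdCs. Cushion EdCs exceeded chamber EdCs in 4 of 4 libraries for Tal1. Gata2 was at 0.457 in the endothelial cells led by Gja4 and Rgs2 and at 0.413 in blood cells led by Mpo and Prtn3, which overlapped. In red blood cells Gata2 was at 0.00378. It did not separate chamber (0.225) from cushion EdCs (0.215), each being higher in 2 of 4 libraries. Vascular endothelial-like cells had less Gata2 than either EdC type in 4 of 4 libraries, at 0.110. Nfatc1 was the most cushion-weighted gene of the list, with 1.38 in cushion EdCs, 0.436 in chamber EdCs and 0.181 in vascular endothelial-like cells. The order held in 4 of 4 libraries, and MCs, part of which descend from cushion endocardium, were at 0.210.

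Within chamber EdCs the genotypes separated most for Etv2, Myct1 and Sox17. Etv2 stood at 0.586 and 0.441 in the controls (libraries 5 and 7) against 0.173 and 0.255 in the mutants (6 and 8). Both mutant libraries lay below both controls, and the log2 fold change was -1.42 ± 0.22 (SE). Myct1 was at 0.237 and 0.220 in the controls against 0.424 and 0.667 in the mutants, a log2 fold change of 1.29 ± 0.19. Both mutant libraries were above both controls, library 8 more than library 6. Sox17 was at 0.0970 and 0.0709 in the controls against 0.233 and 0.228 in the mutants, a log2 fold change of 1.01 ± 0.20. The mutant chamber values of Sox17 stayed below the cushion values of the same libraries, which were 0.273 and 0.373. The gap was narrower in library 6. With its UMIs pooled over cells, chamber EdCs of library 6 were at 0.180 against 0.259 in cushion EdCs.

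Sox18 was at 0.135 and 0.156 in control against 0.163 and 0.344 in mutant chamber EdCs. Library 8 carried most of this difference, since the log2 fold change of 0.82 ± 0.26 was 0.39 without it and 1.15 without library 6. Fli1 was at 0.315 and 0.356 in control against 0.390 and 0.438 in mutant chamber EdCs, a narrow gap with a log2 fold change of 0.39 ± 0.17, or 0.22 without library 8. Gata2 was slightly lower in both mutant libraries, at 0.236 and 0.231 against 0.220 and 0.212 (log2 fold change -0.15 ± 0.16). With UMIs pooled over cells, Gata2 overlapped between genotypes. The genotypes overlapped for Sox7, Erg, Tal1 and Nfatc1, whose log2 fold changes were 0.15, 0.43, -0.07 and 0.08. For Erg, the value rested on library 6, at 0.281 against 0.172 in library 8, and was 0.10 without library 6. Nfatc1, the gene that carries the Cre, was at 0.479 and 0.378 in the controls against 0.433 and 0.456 in the mutants. In all, 6 of the 10 genes did not overlap between genotypes in chamber EdCs, 4 above and 2 below, beside 34.6% of the 11328 genes tested (20.6% above and 14.0% below). All 10 had passed the filter on low counts, and the list was chosen on this contrast, so the count stands as a description.

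**Figure D2:**
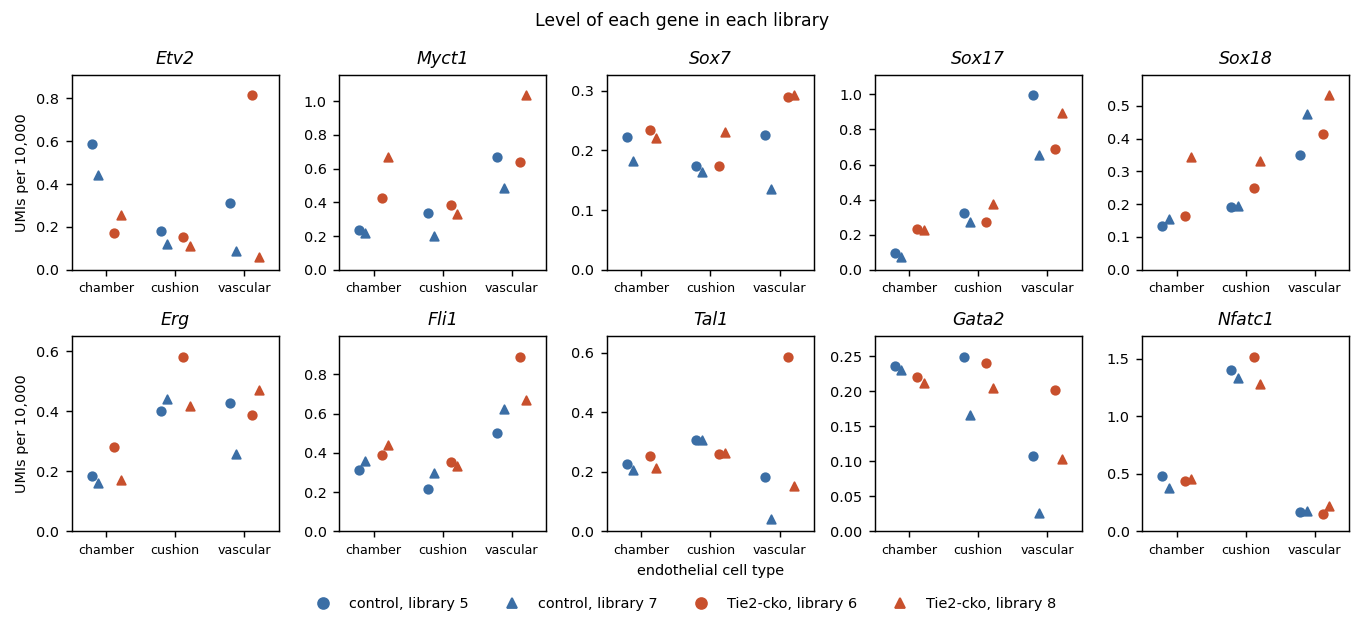
Level of each gene (UMIs per 10000, linear axes from 0) in chamber EdCs, cushion EdCs and vascular endothelial-like cells, 1 point for each library. Control libraries are blue and Tie2-cko libraries orange. In chamber EdCs Etv2 lies at 0.441 to 0.586 in control and 0.173 to 0.255 in Tie2-cko libraries, with no such gap in cushion EdCs.

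In cushion EdCs the differences were smaller. Etv2 was at 0.180 and 0.122 in the controls against 0.152 and 0.112 in the mutants, so the genotypes overlapped and the log2 fold change was -0.28 ± 0.25. Myct1 was at 0.336 and 0.201 against 0.384 and 0.329, and overlapped as well (0.37 ± 0.21). Sox17 was at 0.322 and 0.274 in the controls against 0.273 and 0.373 in the mutants, with a log2 fold change of 0.00. Of the 10 genes, 3 did not overlap, 2 above and 1 below, beside 25.6% of the 11404 genes tested (15.3% above and 10.3% below). By edgeR's test 0.0351% of these genes were called. Sox18 was above the controls, at 0.192 and 0.196 against 0.248 and 0.331, and so was Fli1, at 0.218 and 0.299 against 0.351 and 0.332. The log2 fold change of Fli1 was 0.23 ± 0.21, and -0.03 without control library 5. With UMIs pooled over cells, Fli1 overlapped between genotypes. Tal1 was below the controls, at 0.305 and 0.308 in the controls against 0.260 and 0.261 in the mutants. The summed red blood cell markers were lower there too, at 70.8 and 38.2 against 13.1 and 12.4, and their part in the Tal1 value was not tested. A difference of the genotype effect between chamber and cushion EdCs was not tested.

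Over chamber and cushion EdCs as 1 group, 8 of the 10 genes did not overlap between genotypes, 7 above and 1 below, beside 33.2% of the 12524 genes tested (21.4% above and 11.8% below). The gene below was Etv2, at 0.399 and 0.291 in the controls against 0.162 and 0.168 in the mutants (log2 fold change -1.22 ± 0.18). Those above were Myct1 (0.84 ± 0.17), Sox18 (0.70 ± 0.23), Sox17 (0.44 ± 0.19), Erg (0.38 ± 0.14), Fli1 (0.26 ± 0.16), Sox7 (0.14 ± 0.14) and Nfatc1 (0.12 ± 0.11). Several of these values moved with 1 library. Without Tie2-cko library 8, Sox18 was 0.30, Sox17 0.21, Sox7 0.04 and Nfatc1 0.06, and without library 6, Erg was 0.24. Fli1 was 0.07 without control library 5 and 0.48 without control library 7. Chamber EdCs were 53.9% and 52.9% of the EdCs in the controls against 46.4% and 39.2% in the mutants, and their part in these values was not tested. Nfatc1 and Erg, which were above the controls here, were higher in cushion than in chamber EdCs and overlapped within each type. Sox7 was also above here, but only narrowly, at 0.2012 in Tie2-cko library 6 against 0.2006 in control library 5. It overlapped within each type, and was higher in chamber than in cushion EdCs in 3 of 4 libraries. The summed level of 6 red blood cell markers in chamber EdCs was also lower in Tie2-cko libraries, at 14.9 and 13.2 against 90.0 and 33.8, with 6 of 6 markers below. Tal1 was at 0.578 in red blood cells, and the part of such transcripts in the results was not tested. For 8 mesenchymal markers the sum in all EdCs was 2.89 and 2.91 in Tie2-cko against 2.32 and 2.30 in control libraries, with 5 of 8 markers above. Within chamber EdCs that sum was 0.905 and 1.02 against 0.808 and 0.808.

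**Figure D3:**
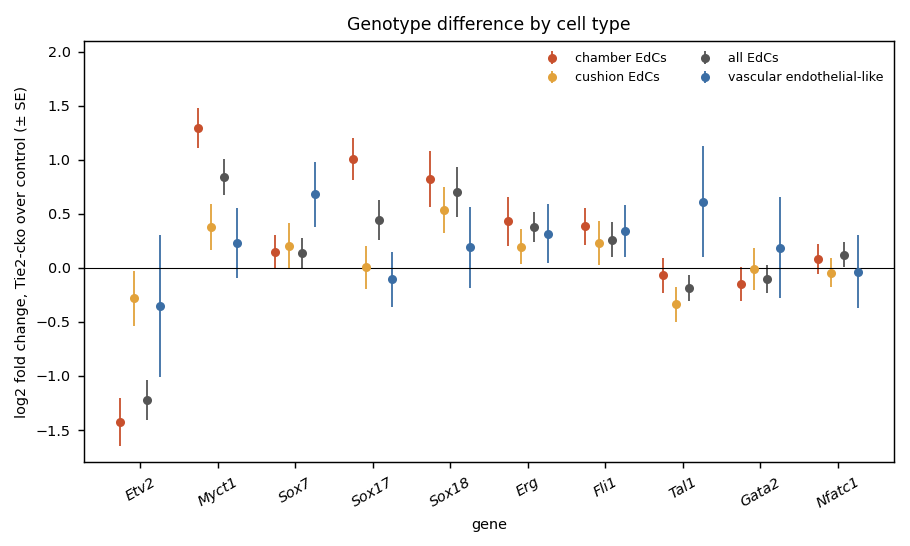
Log2 fold change, Tie2-cko over control, with its standard error (edgeR, 2 libraries against 2) for each gene in 4 groups of cells. In chamber EdCs Etv2 (-1.42), Myct1 (1.29) and Sox17 (1.01) lie farthest from 0, while the standard errors in vascular endothelial-like cells reach 0.66.

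The same sides were seen in the share of cells with a transcript after thinning to 5500 UMIs, which removes the depth of library 6. Cells with fewer UMIs were left out. Etv2 was detected in 22.6% and 18.6% of control chamber EdCs and in 6.14% and 9.32% of Tie2-cko chamber EdCs. In CMs, which should lack Etv2, the share was 0.0846% to 0.394%, so the mutant shares remained above this background. Whether free RNA made up this background was not tested. Unthinned, the median depth of chamber EdCs was 15417, 28354, 13469 and 11774 UMIs, and that of CMs 27519, 47197, 21013 and 23291, in libraries 5, 6, 7 and 8. Myct1 was detected in 12.4% and 8.08% of control and in 20.2% and 26.4% of Tie2-cko chamber EdCs, against 0.0282% to 0.295% of CMs. Sox17 was detected in 5.88% and 4.44% against 8.77% and 10.6%. For these 3 genes the mutant libraries lay on the same side of the controls by share as by level.

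Etv2 transcripts were unevenly spread over the cells. In chamber EdCs of control library 5, 147 of 343 cells held 391 Etv2 UMIs, and 21 cells with at least 5 UMIs held 175 of them. In control library 7, 191 of 531 cells held 362 UMIs, of which 80 lay in 11 such cells. Tie2-cko library 6 had 4 such cells among 122 and library 8 had 3 among 341. As shares of cells these counts overlapped between genotypes, library 6 lying above control library 7. The most in a cell was 9 UMIs in both mutant libraries, against 19 in control library 5 and 14 in control library 7. This value also depends on the number of cells and on their depth. UMIs per cell with any Etv2 were 2.66 and 1.90 in the controls against 2.05 and 1.603 in the mutants, unthinned, and overlapped between genotypes. Myct1 had 1.44 and 1.39 UMIs per cell with any Myct1 in the controls against 3.05 and 1.94 in the mutants, of which library 6 was sequenced more deeply per cell.

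The genotypes were also compared within the clusters behind these types. Chamber EdCs were 2 sub-clusters, both led by Tm4sf1 and Irx5, and Etv2 was lower in Tie2-cko libraries in both. In the larger it was at 0.531 and 0.493 in the controls against 0.195 and 0.306 in the mutants, and in the smaller at 0.666 and 0.387 against 0.135 and 0.160. Myct1 was higher in both, at 0.261 and 0.269 against 0.422 and 0.691 in the larger and at 0.202 and 0.168 against 0.427 and 0.622 in the smaller. The 3 cushion sub-clusters differed among themselves. The one led by Nrg1 and Cyp26b1 had Etv2 at 0.0646 to 0.0859 and Sox17 at 0.365 to 0.533. Its Etv2 was the lowest in 4 of 4 libraries and its Sox17 the highest in 3 of 4, since in library 7 the sub-cluster led by Klf2 and Ptprb was at 0.386 against 0.365. In each of the 3 cushion sub-clusters the genotypes overlapped for Etv2 and for Sox17. Myct1 overlapped in 2 of them, but in the sub-cluster led by Krt79 and Nts it was higher in the mutants, at 0.431 and 0.256 in the controls against 0.452 and 0.520. Sox17 and Fli1 were higher in the Tie2-cko libraries in both chamber sub-clusters. Fli1 was at 0.282 and 0.282 in the controls against 0.345 and 0.397 in the mutants in the larger. In the smaller it was at 0.362 and 0.433 against 0.467 and 0.514. Sox18 and Gata2 did not keep their chamber side in both. Sox18 in the larger was at 0.186 and 0.191 in the controls against 0.171 and 0.401 in the mutants, and Gata2 in the smaller was at 0.303 and 0.260 against 0.317 and 0.288, so both overlapped.

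**Figure D4:**
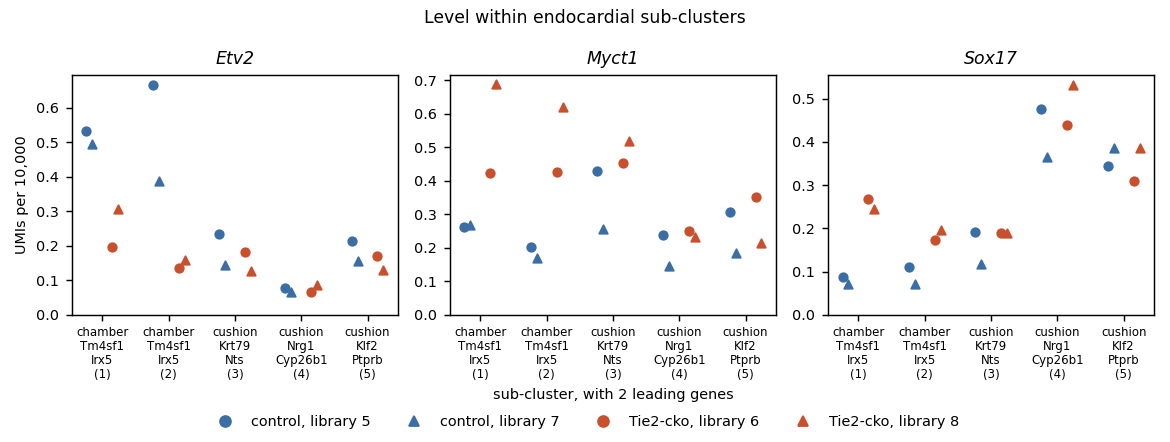
Level of Etv2, Myct1 and Sox17 (UMIs per 10000, linear axes from 0) in the 5 sub-clusters of EdCs, numbered (1) to (5) and named by 2 leading genes, 1 point for each library. In both chamber sub-clusters Etv2 is lower and Myct1 and Sox17 are higher in the Tie2-cko libraries, and in the cushion sub-clusters Sox17 overlaps.

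In vascular endothelial-like cells, which the list was not chosen on, the difference was tested. All 10 genes passed the filter on low counts, and none was called by edgeR over 8353 genes (0.0599% called, all adjusted p = 1.00), at an unadjusted p under 0.05 or by DESeq2. Myct1 was at 0.671 and 0.485 in the controls against 0.639 and 1.03 in the mutants, a log2 fold change of 0.23 ± 0.32. Etv2 had -0.35 ± 0.66, and its libraries divided by number and not by genotype. The value ran from -2.20 without Tie2-cko library 6 to 1.63 without control library 5. Levels were 0.312 and 0.0895 in the controls (5 and 7) against 0.813 and 0.0611 in the mutants (6 and 8), with library 6 well above the others. Pooled over cells, so that cells weigh by their UMIs, it was 0.277 and 0.242 UMIs per 10000 in libraries 5 and 6 and 0.0515 and 0.0463 in libraries 7 and 8. The UMIs behind the higher values lay in few cells, 52 UMIs in 9 of 75 cells in library 5, with 20 in 1 cell, and 65 UMIs in 17 of 65 cells in library 6. Libraries 7 and 8 held 2 and 4 Etv2 UMIs in these cells, too few to compare. Sox7 and Fli1 were the 2 genes without overlap, both above the controls, beside 27.9% of genes in either direction. Sox7 was at 0.226 and 0.135 against 0.290 and 0.292 (log2 fold change 0.68 ± 0.30, adjusted p = 1.00 by edgeR). A library held 29 to 75 of these cells.

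In MCs all 10 genes passed the filter, and none was called over 12614 genes (0.0% called, edgeR), while 1 had an unadjusted p under 0.05. This was Erg, with a log2 fold change of -1.14 ± 0.41 (edgeR adjusted p = 1.00) from 14, 7, 29 and 12 UMIs in libraries 5, 6, 7 and 8. As a mean over cells it was 0.0115 and 0.0195 in the controls against 0.0217 and 0.00923 in the mutants, which overlapped. Gata2 was at 0.0342 and 0.0441 in control against 0.0543 and 0.0477 in mutant MCs, a log2 fold change of 0.45 ± 0.23. In red blood cells only Tal1 and Nfatc1 passed the filter, and neither was called over 10430 genes (0.0% called, by edgeR or DESeq2) or had an unadjusted p under 0.05. Tal1 was at 0.575 and 0.578 in control against 0.679 and 0.482 in mutant red blood cells, which overlapped, and the log2 fold change was 0.05 ± 0.19. Macrophage-like and megakaryocyte-like cells numbered under 20 in some libraries and were not tested.

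Related genes were followed from 5 lists, and none of their members was called by edgeR in chamber EdCs or in all EdCs, where the test called 0 of 12524 genes (0.0%), 628 having an unadjusted p under 0.05 and DESeq2 calling 11. Of 14 other ETS family genes tested in all EdCs, 0 had an unadjusted p under 0.05, and their median log2 fold change was 0.11, beside 0.01 over all genes. Elf1 had the highest value (0.25 ± 0.16) and Etv4 the lowest (-0.34 ± 0.38), with overlapping libraries for Etv4. Of 13 tested SOX, GATA and NFAT genes outside the list, 3 had an unadjusted p under 0.05, all higher in Tie2-cko, and the median was 0.24. Sox5 had the highest value (0.52 ± 0.17) and Sox11 the lowest (-0.01 ± 0.11). Sox11 was below the controls in chamber EdCs (-0.24 ± 0.13) and above them in cushion EdCs (0.27 ± 0.14).

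Among 7 partners of TAL1 and GATA factors the lowest value was that of Lyl1, the close relative of Tal1, at -0.48 ± 0.14 in all EdCs. It was at 0.508 and 0.534 in control against 0.311 and 0.342 in mutant chamber EdCs (-0.66 ± 0.14, adjusted p = 0.235 by edgeR), but above the controls in cushion EdCs, at 0.163 and 0.152 against 0.291 and 0.186. Ldb1, which bridges such complexes, had the highest value (0.25 ± 0.12). Of 11 other endothelial transcription factors tested, 4 had an unadjusted p under 0.05 in all EdCs, all higher in Tie2-cko, with a median of 0.18. Klf4, a flow-responsive factor, was highest (0.45 ± 0.15) and Foxc2 lowest (-0.32 ± 0.14). The 14 genes known as ETS targets had a median of 0.13 in all EdCs and 0.17 in chamber EdCs, beside 0.00 over all genes in chamber EdCs. Robo4, an endothelial guidance receptor, had the highest value in all EdCs (1.202 ± 0.34), and in chamber EdCs it had 2.28 ± 0.41 (adjusted p = 0.179 by edgeR), from low levels of 0.0183 and 0.00612 in the controls against 0.0460 and 0.0585 in the mutants. Vwf, the von Willebrand factor gene, had the lowest value in all EdCs (-0.47 ± 0.19). Its libraries overlapped there, at 0.551 and 0.356 in the controls against 0.366 and 0.278 in the mutants. In chamber EdCs Vwf had -0.67 ± 0.18 (adjusted p = 0.411 by edgeR), and both mutant libraries were below both controls. In vascular endothelial-like cells it had 1.16 ± 0.57, with overlapping libraries. In chamber EdCs 5 of the 14 targets lay above both controls and 1 below, beside 20.6% and 14.0% of all genes tested.

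The genes most alike in their levels over 30 clusters were found by Pearson's r of log2(UMIs per 10000 + 0.05) over 11754 genes. The clusters share the 4 libraries, and many endothelial genes are high in the same clusters, so the values are a description. For Etv2 they were Exoc3l (0.92), Cyyr1 (0.91) and Apold1 (0.90). Myct1 was most like Vwf (0.97), Esam (0.96) and Pdgfb (0.94). The SOXF genes shared Clec14a, with 0.99 for Sox7, 0.97 for Sox17 and 0.98 for Sox18. Erg was most like Nos3 (0.95), and Nfatc1 most like Eng (0.96). Fli1 was most like Tgfb1 (0.89), Tal1 most like Lyl1 (0.90) and Gata2 most like Cbfa2t3 (0.89).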

How the data were processed

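Cells of 4 libraries, 2 control and 2 Tie2-cko, were analysed by 10x single-cell RNA sequencing. The deposited values are raw UMI counts, which the authors obtained with Cell Ranger on mm10 (per the submitters' processing notes). The matrix header gives 6.1.2 as its version, whereas the methods name another. The annotation is not given in the sources used here. A correction for free RNA or doublets is not described.

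Barcodes were kept with at least 500 genes, 1000 UMIs and at most 10% mitochondrial UMIs. Doublets were scored by Scrublet in scanpy 1.11.5 and the highest scores removed at 0.8% per 1000 barcodes. Seurat 5.3.0 clustered cells on variable genes (2000 less the 43 that are named or listed here), with 30 principal components, 20 neighbours and resolution 0.8. Endothelial and immune clusters were divided again, at 0.5 and 0.3. A cluster was named when at least 0.65 of a type's markers reached 0.25 of their highest cluster, and none was given where the median cell had under 0.333 of the UMIs of its library. These conditions were set with the clusters in view. Levels are means over cells for libraries with at least 10 cells of a type.

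For each library and type of cell the counts were added up, and the sums were tested with edgeR 4.0.16 (TMM, filterByExpr, quasi-likelihood), with Benjamini-Hochberg adjustment over all genes of a type and a threshold of 0.05. Standard errors are the log2 fold change over the square root of F. DESeq2 1.42.0 was an alternative. The fit was also run on simulated data, whose outcome is not given here and on which no result rests. Nothing states which heart a library holds, so p-values measure the spread between these libraries only. Genes were named by rule: the 10 genes, Tek, from each list those past the threshold and the highest and lowest by fold change in all EdCs, and up to 3 genes most alike each member. The genes and lists were chosen with earlier results of these data known. Scripts ran on Python 3.11.15 (matplotlib 3.10.9, pandas 2.3.3, scipy 1.17.1) and R 4.3.3.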

Additional observations from a re-analysis of the deposited data

Results flagged for a closer look

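Gata2 lay on opposite sides of the controls in different cells. In chamber EdCs both Tie2-cko libraries were below both control libraries, with a log2 fold change of -0.15 ± 0.16. In MCs both were above, with a log2 fold change of 0.45. The chamber value was smaller than its standard error, and the genotypes overlapped in the smaller chamber sub-cluster. They also overlapped in chamber EdCs when UMIs were pooled over cells. Of all genes tested in chamber EdCs, 34.6% did not overlap, and this share was not computed for MCs. The difference between the cell types was not tested.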

How the results depend on the processing

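In chamber EdCs (1 gene called) DESeq2 called 44, no filter on low counts 204, a block for libraries 5 and 6 gave 880, the stricter cell filter and the doubled rate of doublet removal 0 each, and leaving out 1 library 1 to 157 (157 without control library 5). In cushion EdCs (4 called) the counts were 9, 27, 78, 0 and 0 in that order, 2 at resolution 1.2, and 9 to 55 with 1 library left out (55 without control library 7). In all EdCs (0 called) they were 11, 109 and 796 for DESeq2, no filter and the block, 1 with the stricter cell filter, and 10 to 53 with 1 library left out (53 without Tie2-cko library 6). In vascular endothelial-like cells (5 called) they were 27 with no filter, 40 with the block, 0 with the stricter cell filter, 3 at resolution 1.2 and 5 to 56 with 1 library left out (56 without Tie2-cko library 8). In red blood cells (0 called) they were 4 with no filter, 4 with the block and 0 to 1 with 1 library left out. The causes were not tested. A fit that leaves out 1 library assumes that the lone library of its genotype varies like the others.

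The log2 fold changes of the 10 genes kept their sign in 108 of 110 alternative fits in chamber EdCs, 88 of 100 in cushion EdCs, 110 of 110 in all EdCs and 90 of 99 in vascular endothelial-like cells. In chamber EdCs the range was -1.70 to -1.18 for Etv2, 1.03 to 1.51 for Myct1 and 0.86 to 1.15 for Sox17. In cushion EdCs Sox17 ranged from -0.28 to 0.21 and Gata2 from -0.21 to 0.21, so they had no direction there. Etv2 (-0.57 to 0.04), Sox7 (-0.09 to 0.42) and Fli1 (-0.03 to 0.57) changed sign in cushion EdCs as well. In vascular endothelial-like cells Etv2 ranged from -2.20 to 1.63 and Tal1 from -0.15 to 2.43, each from leaving out 1 library (Tie2-cko library 6 or control library 5), so they had no direction there either. None of the 10 was called in vascular endothelial-like cells under any of these settings. The adjusted p of Tek in chamber EdCs was at most 0.0958. Of the 10 genes, 7 did not overlap in all EdCs at resolution 1.2, and 9 with UMIs pooled over cells. Adding the endothelial cells led by Gja4 and Rgs2, an alternative chosen after seeing the data, gave 7. Each count of 7 left out Sox7, and the count of 9 added Tal1. A block that sets libraries 5 and 6 against 7 and 8 pairs 1 control with 1 Tie2-cko library. It rests on cell types seen in the data, since the labels give the genotypes no shared replicate numbers. The methods describe control and mutant libraries as matched by somites, from 1 litter and in 1 lane. Which control matches which mutant is not stated.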

Other observations

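A cluster of 1542 cells with few UMIs had AY036118, Gm42418, Klhl4, Irx5, Gngt2, Lars2 and Tm4sf1 as its first genes. AY036118 and Gm42418 were also among the leading genes of 2 other clusters with few UMIs, and Irx5 and Tm4sf1 led chamber EdCs. The cluster was left out of the comparisons above except in 1 alternative fit, which counted it as chamber EdCs and gave -1.39 for Etv2 and 1.26 for Myct1. Its cells held a median of 1670 to 2001 UMIs. Pooled over the cells of a library, Etv2 stood at 0.266 and 0.217 UMIs per 10000 in the controls (libraries 5 and 7) against 0.120 and 0.158 in the mutants (6 and 8), from 33, 20, 9 and 9 UMIs. Myct1 stood at 0.121 and 0.0758 in the controls against 0.173 and 0.158 in the mutants, from 15, 7, 13 and 9 UMIs. For Etv2 both mutant libraries were below both controls and for Myct1 above them. Sox18 and Fli1 were also above the controls, the side they took in chamber EdCs. Gata2 was above and Sox7 and Erg were below, which was not so in chamber EdCs. Sox17 overlapped, at 0.153 and 0.108 in the controls against 0.173 and 0.141 in the mutants, as did Tal1 and Nfatc1. The counts were too low for a test.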
